A study of Mus musculus with 23 samples.

Results

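The carboxylesterases of the Ces1 and Ces2 families were followed in the ileum of male mice across 2 genotypes and 2 treatments. The genes examined were *Ces2a*, *Ces2b*, *Ces2c*, *Ces2e*, *Ces2f*, *Ces2g*, *Ces1d*, *Ces1e*, *Ces1f* and *Ces1g*, chosen by name. Their probes were all those that carried one of these names on the array, 11 of 56605 probes that were not controls, for 10 of the 23912 gene names tested. Wild-type (WT) mice were C57Bl/6J animals purchased at 6 weeks of age, whereas *Pxr*-/- mice, which lack the pregnane X receptor (PXR, gene *Nr1i2*), were backcrossed on C57Bl/6J and had been bred in the authors' facility for 10 years. Genotype and breeding origin therefore cannot be told apart in any comparison between WT and *Pxr*-/- mice. After 2 weeks of acclimatisation, PCN (pregnenolone 16α-carbonitrile, a ligand of rodent PXR) was injected intraperitoneally at 100 mg/kg in corn oil every day for 4 days, and control mice (CONT) were given the oil without PCN. Tissue was taken at ZT6, with 6 h between the final injection and death; the labels call the mice fed, whereas the study's text speaks of a semi-fasted state at that hour. With 1 array per mouse, 23 arrays were analysed: WT mice gave 6 with oil and 5 with PCN, and *Pxr*-/- mice gave 6 with each.

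Carboxylesterases are serine hydrolases of the endoplasmic reticulum that cleave ester, amide and carbamate bonds in drugs, prodrugs and pesticides as well as in acylglycerols and cholesteryl esters. Enzymes of the Ces2 family dominate in the small intestine, where they meet orally taken compounds first, and Ces1 enzymes dominate in liver. PXR is a nuclear receptor that binds foreign compounds and steroids and switches on genes of drug metabolism, of which *Cyp3a11* is the classical example in mice. Mice have more genes in both families than humans, lying side by side in 2 clusters on chromosome 8.

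On the array, the brightest probes of the 6 Ces2 genes lay on chr8:107263207-107492338 and those of the 4 Ces1 genes on chr8:95698949-95826781 (mm9). Of these 10 probes, all were well above background by the scanner software on 23 of 23 arrays, except that of *Ces1g*, which was so on 22 arrays (5 of 6 in *Pxr*-/- PCN), and none was saturated. A second probe for *Ces2f*, placed on a predicted transcript, was above background on 0 arrays (median spot signal between 23 and 35) and had no value in the authors' table. Each gene is therefore described by 1 probe, and no level is set against that of another gene, because probes differ in how well they bind.

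The 2 probes on which the treatment results turn have the following sequences, given 5′ to 3′ on the plus strand. The *Ces2a* probe lies at chr8:107263207-107263266 (mm9), from base 1139 of its transcript, and the *Ces2f* probe at chr8:107478540-107478599, from base 1632.
Ces2a probe: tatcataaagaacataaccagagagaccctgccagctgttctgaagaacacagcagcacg
Ces2f probe: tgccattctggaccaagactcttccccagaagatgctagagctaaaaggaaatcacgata
Neither resembled another probe on the array closely: the longest run shared with a probe of another gene was 14 bases for *Ces2a* and 13 for *Ces2f*. Probes were compared only with probes, so binding of these 2 to the transcripts of other Ces genes was not tested. Among the probes of the 10 genes, only those of *Ces2b* and *Ces2c* shared a run of 20 bases or more with a probe of another gene, and they had 31 matching bases in an ungapped overlap of 34 (91.2%). Stretches of 30 bases from both are shown, at chr8:107362447-107362476 for *Ces2b* and chr8:107378258-107378287 for *Ces2c* (mm9), with the identical run of 24 bases in capitals.
Ces2b stretch: gcattTGTCACCTCAGTCTTTGAGCTTTCc
Ces2c stretch: gcatcTGTCACCTCAGTCTTTGAGCTTTCa
Counted from 1 at the 5′ end of the *Ces2b* stretch, the pair differed by T5C and C30A. Whether each of these probes also binds the transcript of the other gene was not tested, and their values are read with that limit.

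*Ces2a* and *Ces2f* were higher with PCN in WT mice, by 5.68-fold and 2.33-fold, and these were the 2 of 10 genes called in that comparison (adjusted p at most 0.05 and a fold change over 1.5). Of all genes tested, 0.857% were called, 0.761% as higher and 0.0962% as lower. *Ces2a* encodes a hydrolase of acylglycerols and xenobiotic esters. On the log2 scale of the table it ranged from 11.36 to 12.77 with a median of 12.16 in WT CONT, and the WT PCN arrays read 14.03, 14.43, 14.78, 14.88 and 15.06. The lowest treated mouse thus lay above the highest control. The means were 12.15 ± 0.47 (SD, n = 6) and 14.63 ± 0.41 (SD, n = 5), and the difference fitted with limma was 2.51 (SE 0.197, 95% confidence interval 2.10 to 2.91, adjusted p 1.1e-07).

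**Figure D1:**
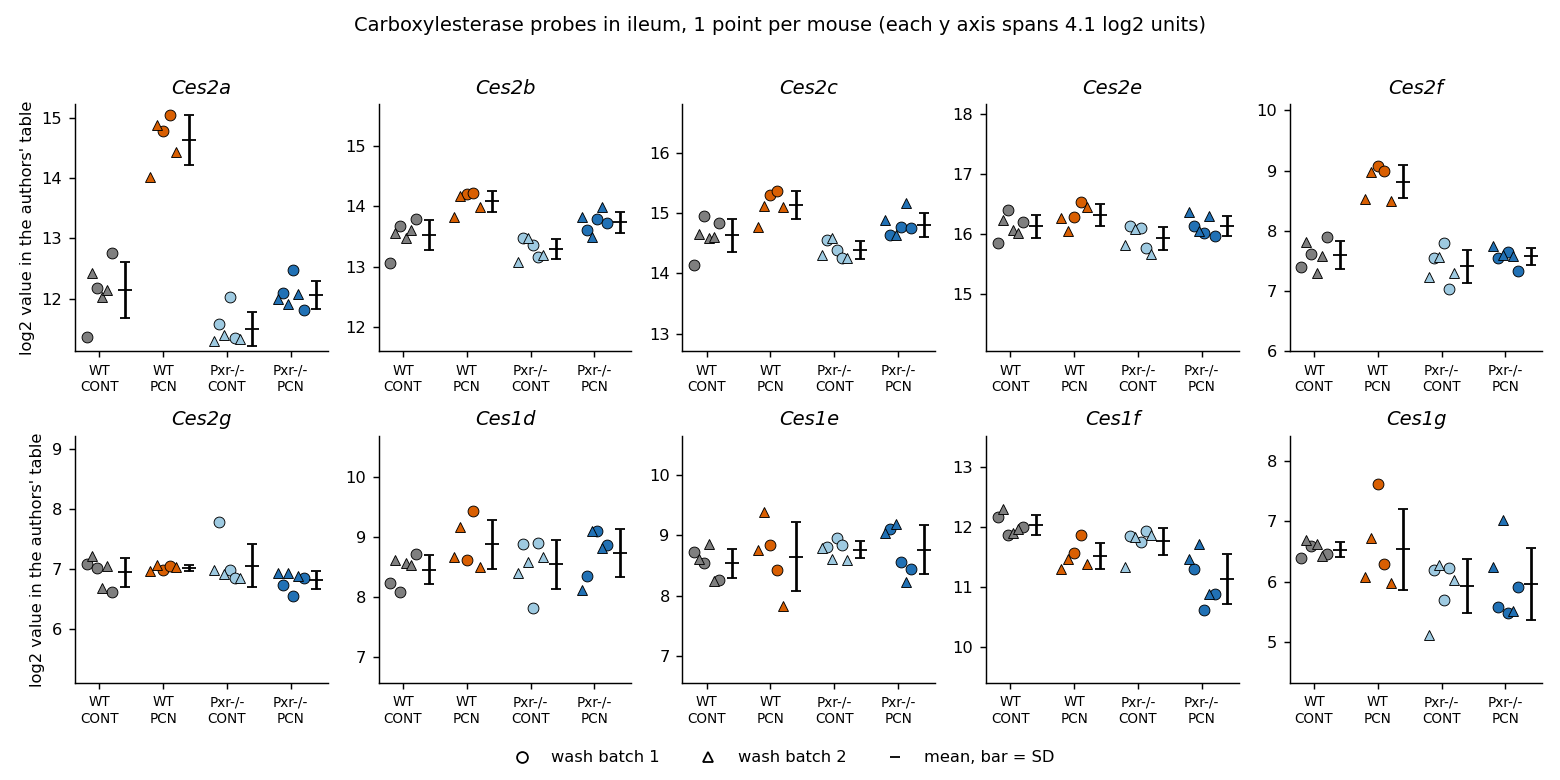
Log2 values in the authors' table (y axis, the same span in each panel) of the 10 carboxylesterase genes in the 4 groups (x axis), with 1 point per mouse, circles for wash batch 1, triangles for wash batch 2, and the mean with its SD beside each group. In *Ces2a* and *Ces2f* all 5 WT PCN mice lie above all mice of the other groups, while the groups of most other genes overlap.

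*Ces2f* encodes a less studied enzyme of the same cluster. It ranged from 7.30 to 7.90 in WT CONT (median 7.59), while the WT PCN arrays read 8.50, 8.53, 8.98, 8.98 and 9.07, again without overlap. The means were 7.60 ± 0.23 (SD, n = 6) and 8.81 ± 0.27 (SD, n = 5), with a difference of 1.22 (SE 0.136, 95% confidence interval 0.94 to 1.51, adjusted p 1.73e-05). Both differences were present within each wash batch, the labels' grouping of the arrays. *Ces2a* differed by 2.82 in wash batch 1 (3 WT CONT and 2 WT PCN arrays, adjusted p 0.00691) and by 2.25 in wash batch 2 (3 and 3 arrays, adjusted p 0.00045). For *Ces2f* the values were 1.39 (adjusted p 0.0344) and 1.11 (adjusted p 0.0238). Leaving out any single array kept *Ces2a* between 2.33 and 2.64 and *Ces2f* between 1.16 and 1.29, both called each time.

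The other Ces2 genes were not called in WT mice. *Ces2b* ranged from 13.06 to 13.79 in WT CONT (median 13.59) and read 13.83, 13.98, 14.17, 14.21 and 14.23 in WT PCN, so that these groups did not overlap. Its difference was 0.56 (SE 0.117, adjusted p 0.0135), which is 1.47-fold and under the fold threshold. For *Ces2c*, whose product is an intestinal acylglycerol and drug hydrolase, WT CONT ranged from 14.14 to 14.95 (median 14.63) and WT PCN read 14.77, 15.11, 15.13, 15.31 and 15.37, with a difference of 0.51 (SE 0.130, adjusted p 0.0548). The highest control lay inside the treated range. When WT PCN replicate 1, the lowest treated array for both, was left out, both passed the thresholds (0.62, adjusted p 0.0085, and 0.60, adjusted p 0.0196) and the count of called genes rose from 2 to 4. *Ces2b* also passed them without WT CONT replicate 6 (0.61, adjusted p 0.0106) and with the scanner's processed signal scaled to the 75th percentile (0.59, adjusted p 0.0196).

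*Ces2e* and *Ces2g* gave no call. *Ces2e* differed by 0.19 (SE 0.112, 95% confidence interval -0.04 to 0.42), from 16.13 ± 0.19 (SD, n = 6) to 16.32 ± 0.19 (SD, n = 5). *Ces2g* differed by 0.08 (SE 0.138, 95% confidence interval -0.21 to 0.36), from 6.94 ± 0.24 to 7.02 ± 0.05. All 6 Ces2 genes had a difference above 0 in WT, with a median of 0.53, whereas the median over all genes tested was -0.01 and 45.8% of them had a difference above 0. This was not particular to WT: in *Pxr*-/- mice 5 of the 6 were above 0, with a median of 0.31, and 11941 of 23912 genes were above 0.

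The 4 Ces1 genes gave no call with PCN in WT. *Ces1f*, a triacylglycerol hydrolase relative, ranged from 11.87 to 12.30 in WT CONT (median 11.98) and read 11.29, 11.38, 11.47, 11.57 and 11.87 in WT PCN. The highest treated mouse lay just under the lowest control, and the difference was -0.52 (SE 0.161, adjusted p 0.138). Groups without overlap, lower with PCN, were found in 1.38% of all genes in this comparison, and higher in 1.64%; among the members, 3 were higher in this way (*Ces2a*, *Ces2b* and *Ces2f*) and 1 was lower. *Ces1d*, the triacylglycerol hydrolase of liver and adipose tissue, differed by 0.42 (SE 0.211, adjusted p 0.455). *Ces1e*, known as egasyn, which retains β-glucuronidase in the endoplasmic reticulum, differed by 0.11 (SE 0.210, adjusted p 0.909), and *Ces1g*, linked to lipid metabolism in liver, by 0.00 (SE 0.282, adjusted p 0.997). The Ces1 differences had a median of 0.06.

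Whether the PCN effects needed the receptor was addressed in *Pxr*-/- mice. There, neither *Ces2a* nor *Ces2f* was called. *Ces2a* ranged from 11.29 to 12.03 in *Pxr*-/- CONT (median 11.37) and from 11.82 to 12.48 in *Pxr*-/- PCN (median 12.04). The ranges overlapped through the highest control, and the difference was 0.57 (SE 0.187, 1.48-fold, adjusted p 0.0898). *Ces2f* ranged from 7.02 to 7.80 (median 7.42) and from 7.33 to 7.75 (median 7.58), with a difference of 0.16 (SE 0.129, adjusted p 0.516), its treated range lying inside that of the controls. With slide as a fixed block, *Ces2a* passed the thresholds in *Pxr*-/- mice (0.71, adjusted p 0.0162). That setting called 446 of 37161 probes, against 352 with the authors' values.

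**Figure D2:**
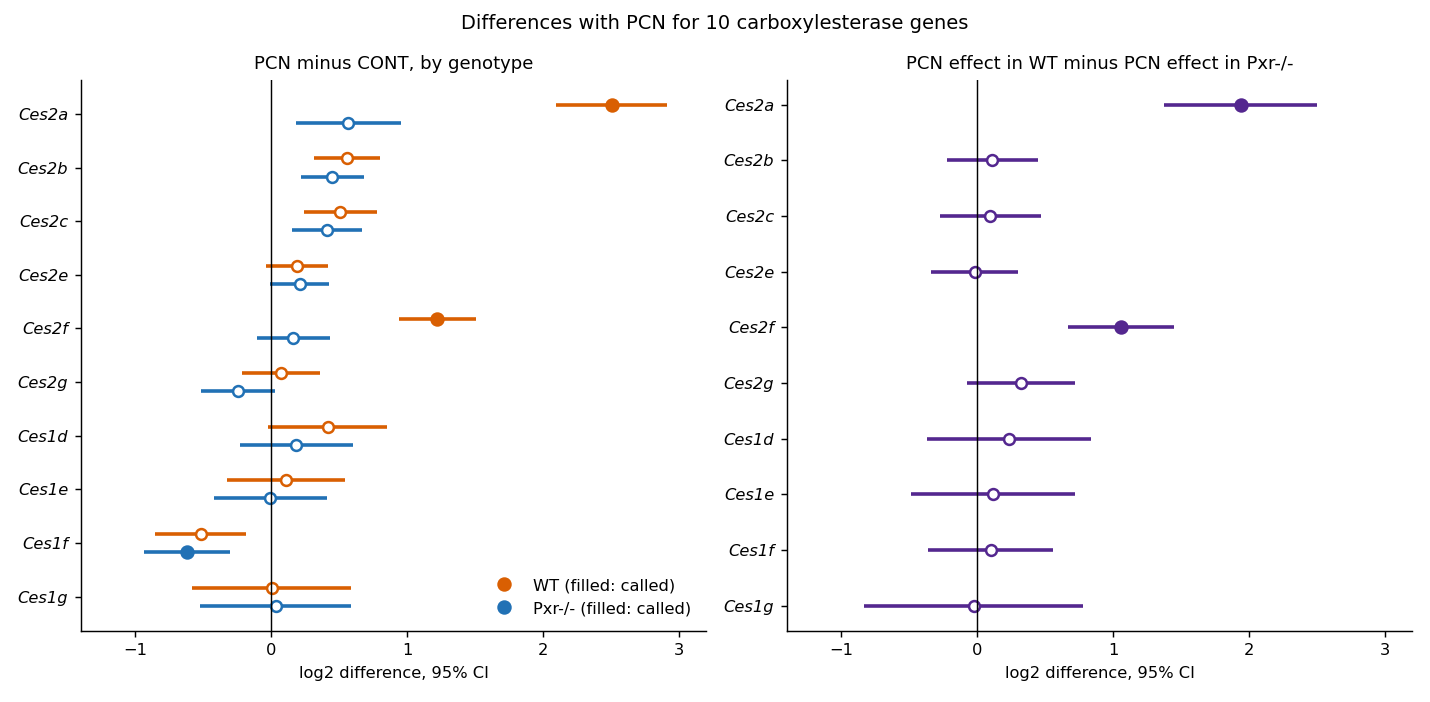
Log2 differences (x axis) with 95% confidence intervals (lines) for 10 genes (y axis), at left PCN minus CONT in WT (orange) and in *Pxr*-/- mice (blue), at right the difference between these effects. Filled points are called: *Ces2a* (2.51) and *Ces2f* (1.22) in WT, *Ces1f* (-0.62) in *Pxr*-/-, and *Ces2a* (1.94) and *Ces2f* (1.06) at right.

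The difference between the PCN effects in the 2 genotypes, tested as an interaction, was 1.94 for *Ces2a* (SE 0.271, 95% confidence interval 1.38 to 2.50, adjusted p 0.00191) and 1.06 for *Ces2f* (SE 0.188, 95% confidence interval 0.67 to 1.45, adjusted p 0.0219). These were the 2 members called, against 0.0962% of all genes. Within wash batches the interaction was 2.34 and 1.60 for *Ces2a* (adjusted p 0.389 and 0.502). For *Ces2f* it was 1.34 and 0.83 (adjusted p 0.552 and 0.726). The direction held, but no batch by itself gave a call for either gene. Over all 37161 probes, the interaction called only 3 in wash batch 1 and 0 in wash batch 2. The *Ces2f* interaction also lost its call without WT PCN replicate 3 (1.00, adjusted p 0.0592) or replicate 2 (1.01, adjusted p 0.0547), with slide as a fixed block (0.98, adjusted p 0.157) and with array weights (0.93, adjusted p 0.0507). *Ces2a* kept it without any single array, between 1.76 and 2.07.

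*Ces2b* and *Ces2c* were higher in all *Pxr*-/- PCN mice than in all *Pxr*-/- CONT mice, with fold changes under the threshold. *Ces2b* ranged from 13.08 to 13.47 in *Pxr*-/- CONT (median 13.28) and from 13.49 to 13.99 in *Pxr*-/- PCN (median 13.76), without overlap, with a difference of 0.45 (SE 0.111, 1.37-fold, adjusted p 0.0263). *Ces2c* ranged from 14.26 to 14.59 (median 14.35) and from 14.63 to 15.17 (median 14.76), also without overlap, with a difference of 0.41 (SE 0.124, 1.33-fold, adjusted p 0.0619). Groups without overlap, higher with PCN, were found in 1.81% of all genes. The interaction was 0.11 for *Ces2b* (95% confidence interval -0.22 to 0.44) and 0.10 for *Ces2c* (95% confidence interval -0.28 to 0.47), both with adjusted p 0.9999, which leaves room for effects that differ by up to these bounds. Because the probes share 24 bases, *Ces2b* and *Ces2c* are not counted as separate evidence of each other.

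*Ces1f* was the 1 member called with PCN in *Pxr*-/- mice, where 1.2% of all genes were called and 0.243% were called lower. It ranged from 11.33 to 11.93 in *Pxr*-/- CONT (median 11.84) and from 10.62 to 11.71 in *Pxr*-/- PCN (median 11.09). The ranges overlapped because *Pxr*-/- CONT replicate 1 was low at 11.33, while the other controls read 11.76 or more. The difference was -0.62 (SE 0.153, 1.53-fold lower, adjusted p 0.0268), near both thresholds. The call was lost when any one of 6 arrays was left out (*Pxr*-/- CONT replicates 2, 5 and 6, and *Pxr*-/- PCN replicates 4, 5 and 6; the differences for *Ces1f* were then -0.60 to -0.51 with adjusted p 0.0499 to 0.0764) and within wash batch 1 (-0.91, adjusted p 0.172) and wash batch 2 (-0.32, adjusted p 0.448). It was also lost with array weights (-0.46, adjusted p 0.121) and when only the *Pxr*-/- groups were fitted (-0.62, adjusted p 0.0916). Over all 37161 probes, 10 were called within wash batch 1 and 159 within wash batch 2. Array weights called 272 probes and a fit of only these groups 261, against 352 with the authors' values. The interaction for *Ces1f* was 0.10 (95% confidence interval -0.36 to 0.56, adjusted p 0.9999), so no difference between the genotypes in its response was detectable.

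The remaining genes gave no call in *Pxr*-/- mice. *Ces2e* differed by 0.21 (SE 0.106, adjusted p 0.282) and *Ces2g* by -0.24 (SE 0.132, adjusted p 0.315). *Pxr*-/- CONT replicate 2 read 7.77 for *Ces2g*, against 6.98 for the next mouse, and without it the difference was -0.09 (adjusted p 0.649). *Ces1d* differed by 0.18 (adjusted p 0.655), *Ces1e* by -0.00 (adjusted p 0.993) and *Ces1g* by 0.03 (adjusted p 0.963). The median of all 10 differences was 0.17 in *Pxr*-/- mice and 0.30 in WT mice, and the medians over all genes were 0.00 and -0.01.

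**Figure D3:**
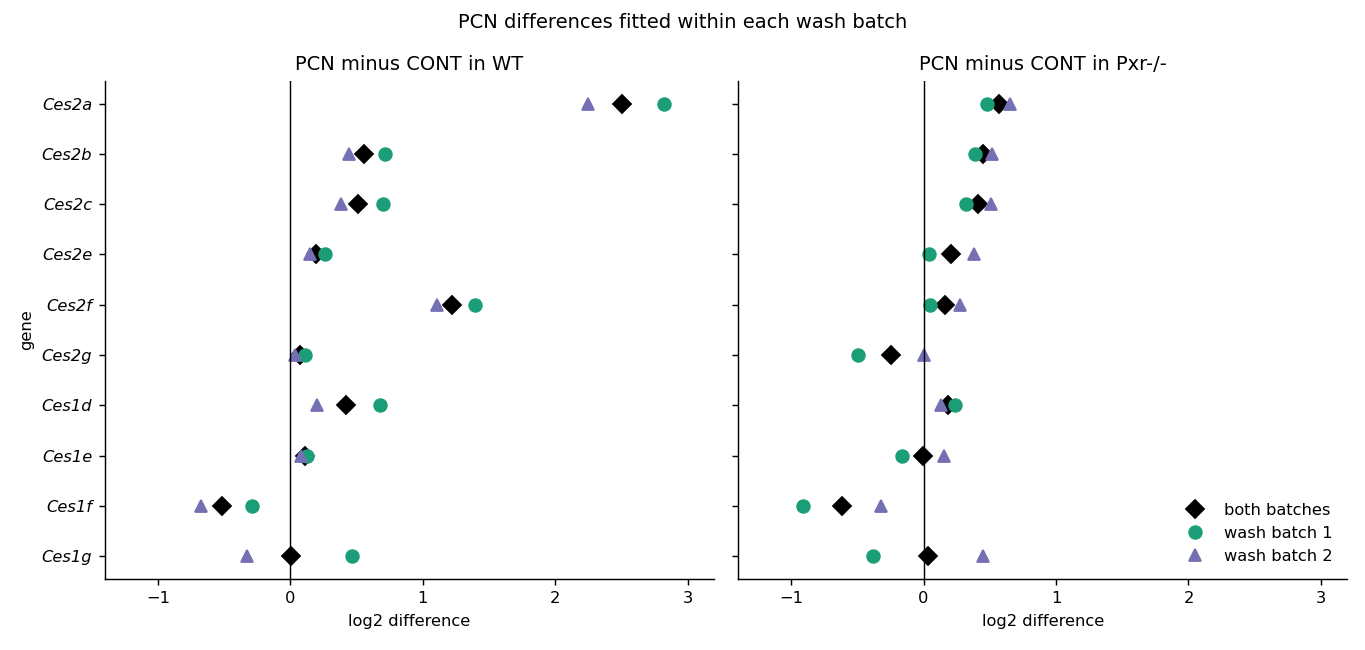
Log2 difference of PCN minus CONT (x axis) for the 10 genes (y axis) in WT (left) and *Pxr*-/- mice (right), fitted on both wash batches (black diamonds), on wash batch 1 (green circles) and on wash batch 2 (purple triangles). *Ces2a* and *Ces2f* stay far above 0 in WT in both batches (2.82 and 2.25, 1.39 and 1.11), whereas *Ces1f* in *Pxr*-/- mice moves between -0.91 and -0.32.

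The genotypes were also compared directly. Without PCN, 0 of the 10 genes were called by limma, against 0.184% of all genes, and 3 had an unadjusted p under 0.05 (*Ces2a*, *Ces2b* and *Ces1g*). The *Ces2a* ranges, 11.36 to 12.77 in WT CONT and 11.29 to 12.03 in *Pxr*-/- CONT, overlapped, with WT CONT replicate 1 the lowest WT control at 11.36. The difference was -0.65 (SE 0.187, 1.57-fold lower, adjusted p 0.180), and without that array it was -0.84 with adjusted p 0.0182 and a call. It was also called with slide as a fixed block (-0.86, adjusted p 0.0133) and with array weights (-0.82, adjusted p 0.0160). These 2 settings raised the calls over all 37161 probes to 257 and 234, against 55 with the authors' values. *Ces1g* ranged from 6.40 to 6.70 in WT CONT (median 6.53) and from 5.12 to 6.28 in *Pxr*-/- CONT (median 6.11), with no overlap, and the difference was -0.61 (SE 0.268, adjusted p 0.495); groups without overlap, lower in *Pxr*-/- CONT, made up 0.669% of all genes. *Ces2b* differed by -0.24 (SE 0.111, adjusted p 0.527) and the other 7 genes by -0.27 to 0.23, none with an unadjusted p under 0.05.

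With PCN in both genotypes, *Ces2a* was 6.03-fold lower in *Pxr*-/- than in WT mice (-2.59, SE 0.197, adjusted p 2.26e-08) and *Ces2f* 2.38-fold lower (-1.25, SE 0.136, adjusted p 7.6e-06). These were the 2 members called, against 0.456% of all genes (0.389% called lower), and in both the 5 WT PCN mice lay above the 6 *Pxr*-/- PCN mice. The same comparison shares its WT PCN arrays with the treatment comparison in WT, so the pair of results is not independent. *Ces2b* differed by -0.35 (adjusted p 0.330), *Ces2c* by -0.34 (adjusted p 0.494), *Ces1f* by -0.37 (adjusted p 0.599) and *Ces1g* by -0.58 (adjusted p 0.716). *Ces2g* did not overlap between the groups, with 6.55 to 6.93 in *Pxr*-/- PCN against 6.96 to 7.06 in WT PCN, although the difference was -0.21 (SE 0.138, adjusted p 0.917). Groups without overlap, lower in *Pxr*-/- PCN, made up 0.849% of all genes, and 3 of the 10 members were among them.

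**Figure D4:**
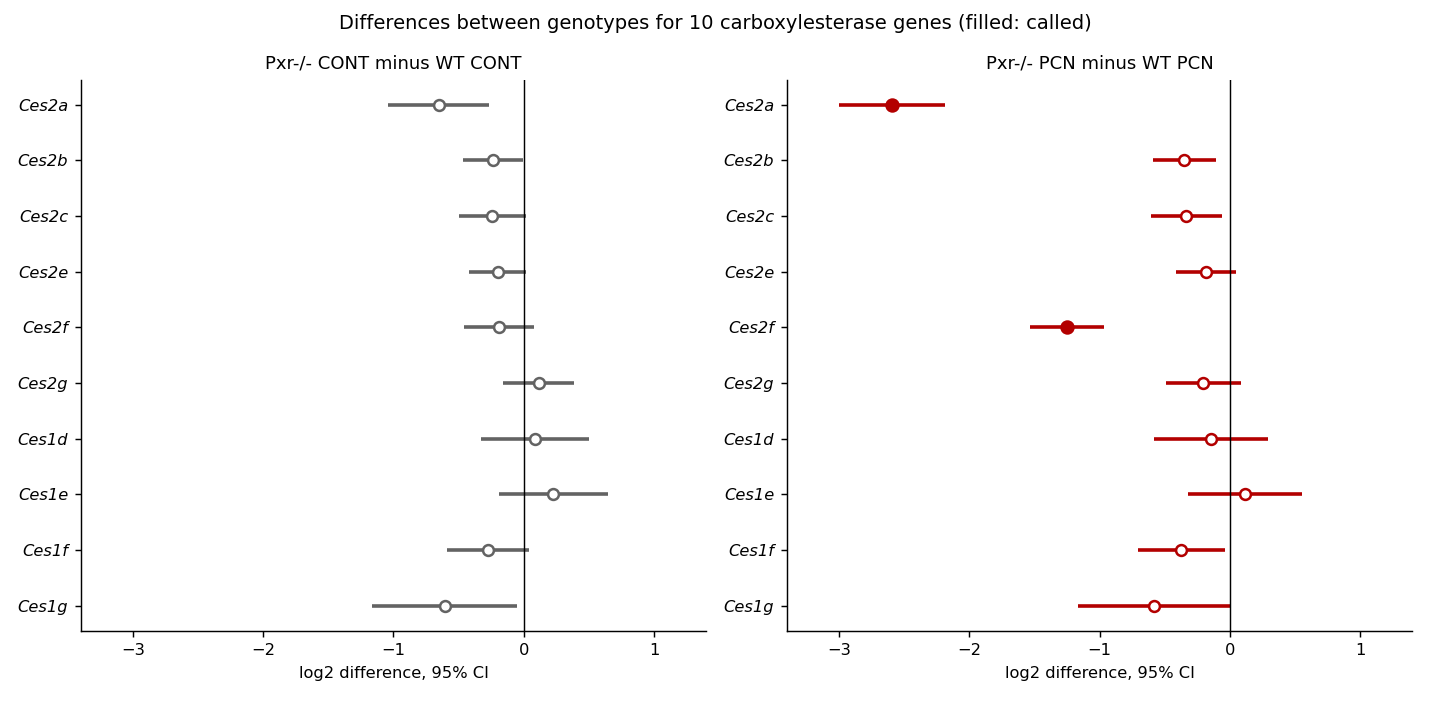
Log2 differences (x axis) with 95% confidence intervals (lines) of *Pxr*-/- minus WT for 10 genes (y axis), without PCN at left and with PCN at right, filled where called. No gene is called at left, and *Ces2a* (-2.59) and *Ces2f* (-1.25) are called at right.

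The 4 group means of each gene were also put in order. *Ces2a* and *Ces2f* had WT PCN first, above WT CONT without overlap, as already given. Groups without overlap, higher with PCN, made up 1.64% of all genes in that comparison. In both genes the order went on from WT CONT to *Pxr*-/- PCN and *Pxr*-/- CONT, whose neighbours overlapped. In *Ces2b*, *Ces2c* and *Ces2e* the order was WT PCN, *Pxr*-/- PCN, WT CONT and *Pxr*-/- CONT, with overlap at each step.

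The genes most like *Ces2a* across the 23 arrays were sought among all 23912 by Pearson correlation, as a description. The nearest were *Cyp2b10* (r = 0.973, Spearman 0.908), *Ces2f* (0.968, Spearman 0.899), *4931406C07Rik* (0.965, Spearman 0.857), *Cyp2b9* (0.964, Spearman 0.878) and *Defb39* (0.950, Spearman 0.892). *Cyp2b10* and *Cyp2b9* are cytochromes P450 and *Defb39* is named as a β-defensin. The arrays share their groups and normalization. With the group and wash batch means removed, the same 5 genes had values between 0.542 (*Cyp2b9*) and 0.754 (*Ces2f*). *Cyp3a11* ranked sixth at 0.943, *Ces2b* was at rank 55 (0.846) and *Ces2c* at rank 93 (0.804), whereas *Ces1f* had -0.13 and *Ces1e* -0.09.

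The same was described after the group and wash batch means were removed, which leaves the variation between mice of a group. Over 15 Ces2 pairs the median correlation of the deviations was 0.536, from -0.124 to 0.922, with 14 above 0. It was highest between *Ces2b* and *Ces2c* (0.922), whose probes overlap in sequence. *Ces2a* correlated equally with *Ces2f* and *Ces2b* by Pearson (both 0.754), but by Spearman the values were 0.855 and 0.689. *Ces2g* stood apart, with -0.124 to 0.301 against the other Ces2 genes. The 6 Ces1 pairs had a median of 0.276, led by *Ces1f* and *Ces1g* (0.631), and the 24 pairs between the families a median of 0.064.

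Markers of other cells were set beside these results. In bulk ileum, where these lists check the tissue and the other cells it could hold, fewer cells of a type and less RNA per cell cannot be told apart. With PCN in WT, 4 of 9 enterocyte markers were higher and 0 were called (median -0.01). Their summed level was 19.30 to 19.76 in WT CONT and 19.51 to 19.68 in WT PCN. A summed level is the log2 of the summed linear signals, in which the brightest markers weigh most. After the group and wash batch means were removed, their mean log2 level correlated with *Ces2b* (0.625), *Ces2c* (0.617), *Ces2f* (0.458) and *Ces2a* (0.430). The values were lower for *Ces2g* (0.255) and *Ces2e* (0.228). Of 8 B cell markers, 8 were higher in WT PCN (0 called, median 1.42, summed level 10.82 to 11.27 in WT CONT and 11.16 to 13.85 in WT PCN), and they correlated in the same way with *Ces1e* (0.613), *Ces1g* (0.558), *Ces2f* (0.360) and *Ces2a* (0.139). The part of B cells in the *Ces1e* and *Ces1g* values was not tested.

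Further lists had members called with PCN. All 7 myeloid markers were higher in both genotypes (2 called in WT and 3 in *Pxr*-/-). Their summed level was 13.00 to 13.53 in *Pxr*-/- CONT and 13.48 to 14.18 in *Pxr*-/- PCN. Their mean log2 level did not overlap between these groups, with 8.32 to 9.03 and 9.17 to 10.45. Nor did it in WT mice, with 8.34 to 8.90 in WT CONT and 9.19 to 9.77 in WT PCN. This mean level correlated with *Ces1f* at -0.465 within groups. All 6 smooth muscle markers were higher in both genotypes (0 and 2 called), with 17.33 to 17.96 and 17.73 to 18.45 in *Pxr*-/- mice. Their mean level correlated with *Ces1f* at -0.00 and with *Ces2g* at 0.514 within groups. The part of either cell type in the *Ces1f* difference was not tested. The 5 adipocyte markers gave no call and correlated with *Ces1e* at -0.742, with a summed level from 12.20 to 13.94 over all groups. Their mean level also correlated with *Ces2b* (0.531), *Ces2c* (0.512) and *Ces2e* (0.437), and less with *Ces2a* (0.242), *Ces2f* (0.175) and *Ces2g* (0.097). Correlation with Ces2 genes was therefore not particular to the enterocyte list. Of 6 pancreatic acinar markers, 3 were above background on 0 arrays, and the 6 ileum markers were above background on 23 of 23 arrays (summed level 18.94 to 19.45, 0 called with PCN in either genotype). Within groups *Ces1f* correlated with the mean level of the ileum markers at -0.534 and with that of the proximal markers at -0.375. The lists for proximal small intestine (5 markers), colon (3 of 4 with a value) and hepatocytes (4 of 5) gave 0 calls in any of the 5 comparisons. That count does not show how far single arrays spread. The summed colon level was 9.55 to 10.13 over the WT groups, 9.55 to 11.35 in *Pxr*-/- CONT and 9.98 to 13.45 in *Pxr*-/- PCN (mean 10.62). The hepatocyte level was 7.73 to 9.84 in WT CONT (mean 8.20) and 7.28 to 8.59 over the other groups. The proximal level was 11.96 to 12.80 over all groups. The part of colon or liver tissue in the Ces values was not tested.

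*Cyp3a11* served as a reference for the treatment. It rose with PCN in WT by 3.53 (SE 0.324, from 8.39 ± 0.87 to 11.89 ± 0.74) and differed by -0.05 in *Pxr*-/- mice (SE 0.308, from 6.57 ± 0.18 to 6.52 ± 0.34). The probe of *Nr1i2* was bright in both genotypes, 12.14 ± 0.16 in WT CONT and 11.73 ± 0.36 in *Pxr*-/- CONT with overlapping ranges, so it does not check the genotype labels.

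Most other Ces genes were not well above background in ileum. Of 10 other Ces genes, 9 had a probe, and 5 of these (*Ces1a*, *Ces1b*, *Ces2h*, *Ces4a* and *Ces5a*) were above background on no array. *Ces1c* and *Ces3a* had values in the table, with 23 and 16 arrays above background, and neither was called in any of the 5 comparisons. *Ces3a* differed by 0.63 with PCN in WT and by 0.78 in *Pxr*-/- mice (adjusted p 0.106 in the latter). Among 17 other ester and epoxide hydrolases tested, such as *Aadac*, *Lipe*, *Pnpla2*, *Mgll* and *Ephx1*, 0 were called in any of the 5 comparisons, with medians of 0.05 for PCN in WT and 0.23 in *Pxr*-/- mice. Between 0.0962% and 1.2% of all genes were called per comparison. The largest difference was that of *Aadac* in *Pxr*-/- CONT against WT CONT (-1.28, SE 0.303, adjusted p 0.0858). Its ranges did not overlap, with 7.06 to 8.15 in *Pxr*-/- CONT and 8.18 to 9.30 in WT CONT, as in 0.669% of all genes. *Ephx2*, the soluble epoxide hydrolase, differed by 0.51 in *Pxr*-/- mice (adjusted p 0.0790), the lowest adjusted p among these genes and comparisons.

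The promoters of *Ces2a* and *Ces2f* are shown because these genes moved together; each holds the 250 bases before the RefSeq start (GRCm38.p6, plus strand), at chr8:104733753-104734002 for *Ces2a* and chr8:104947106-104947355 for *Ces2f*. Capitals mark the letters AGGTCA or AGTTCA, the half-sites that nuclear receptors bind, and ACTTTGCCC, the longest run of the *Ces2a* promoter found in at least 4 of the 5 Ces2 promoters listed, which was chosen after the sequences were seen.
Ces2a promoter: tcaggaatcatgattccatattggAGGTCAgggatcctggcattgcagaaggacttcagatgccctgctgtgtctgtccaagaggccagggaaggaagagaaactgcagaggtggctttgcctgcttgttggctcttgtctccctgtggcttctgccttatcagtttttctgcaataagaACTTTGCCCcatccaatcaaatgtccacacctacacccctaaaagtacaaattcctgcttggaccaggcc
Ces2f promoter: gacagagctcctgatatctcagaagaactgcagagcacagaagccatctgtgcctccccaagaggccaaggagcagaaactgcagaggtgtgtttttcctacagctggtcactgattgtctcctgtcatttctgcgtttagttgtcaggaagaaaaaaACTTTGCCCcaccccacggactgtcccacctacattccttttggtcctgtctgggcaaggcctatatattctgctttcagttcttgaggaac
A promoter was listed for 7 of the 10 genes, and *Ces2b*, *Ces1d* and *Ces1f* had no entry. On either strand AGGTCA was in 1 of the 7 (*Ces2a*) and in 14.0% of all 32851 promoters of this length, and AGTTCA was in 0 of the 7 and in 11.8% of all. Pairs of these half-sites as direct repeats with 1 to 5 bases between, or as everted repeats with 6 or 8, were in 0 of the 7 windows and in at most 0.067% of all promoters per arrangement. A window this short holds none of the more distant sequence, and nothing follows from it about the receptor.

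The shared run lay at a different distance from the start in each Ces2 promoter: 70 bases before it in *Ces2a*, 80 in *Ces2e*, 92 in *Ces2f* and 117 in *Ces2g*. It was in 0.222% of all promoters on either strand and not in *Ces2c*, *Ces1e* or *Ces1g*. The surrounding 29 bases in the 2 genes not shown above were as follows, with the run in capitals.
Ces2e, chr8:104926170-104926198: ggcaatacgaACTTTGCCCcgccctagtg
Ces2g, chr8:104961591-104961619: aaatacagcgACTTTGCCCtgcctccagg
The run was thus present in the 2 genes called with PCN in WT and also in *Ces2e* and *Ces2g*, which were not called. *Ces2a* and *Ces2f* shared a further run of 16 bases, AGAAACTGCAGAGGTG (in lower case above), picked as the longest run common to these 2 promoters. It was held by 2 promoters of 32851, their own, and its presence in both was fixed by that choice. The longest run that *Ces2a* shared was with *Ces2e* (17 bases), which was not called.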

How the data were processed

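RNA of 23 mouse ilea was hybridised to 1-colour Agilent arrays, 1 per mouse. Per the file headers, spot intensity was extracted with Agilent Feature Extraction 10.10.1.1 (the submitters' processing notes also name limma). The deposited log2 values of 37161 probes were made by the authors from filtered median signals that were corrected for wash batch and normalized with CrossNorm. All arrays hold the same set of values (median 8.02), so a difference is relative to the other probes of an array. The deposited intensity values of the same arrays served the alternatives and the background calls (62.7 to 68.8% of probes well above background per array). Precision is limited by the number of arrays.

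All arrays entered 1 limma fit (limma 3.58.1, R 4.3.3) with group means and wash batch, 2-sided, with Benjamini-Hochberg adjustment over all probes of a comparison. A probe was called with a fold change over 1.5 and an adjusted p not above 0.05, and a gene had the call of its brightest probe. Samples were grouped by the labels. Named genes were all 10 members and, by counts, lists of other Ces genes, hydrolases and cell type markers. *Nr1i2* and *Cyp3a11* were named as references, beside the 5 genes most correlated with *Ces2a*. The values of *Ephx2*, *Ces3a* and *Aadac* were chosen for the text after they were seen. The members and lists were chosen with earlier results of these data known. Alternatives changed the normalization, the filter on dim probes, the wash batch, slide and replicate terms, array weights, the samples fitted and the fold threshold, and left out each array in turn. All 10 probes matched RefSeq by accession. Promoters are RefSeq's (GRCm38.p6), and probe positions are those of the scanner files (mm9).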

Additional observations from a re-analysis of the deposited data

Results flagged for a closer look

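Among 40 gene and group combinations examined, 2 held an array that lay far from the rest of its group, as chance alone gives in about 1 of 20. For *Ces2g*, *Pxr*-/- CONT replicate 2 was the highest at 7.77, with 6.98 for the next array, a gap of 0.852 of the group's range. For *Ces1f*, *Pxr*-/- CONT replicate 1 was the lowest at 11.33, with 11.76 for the next, a gap of 0.709 of the range.

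The effect of PCN differed between the genotypes, by the interaction in limma, for *Ces2a* (1.94 on the log2 scale, adjusted p 0.00191) and for *Ces2f* (1.06, adjusted p 0.0219). Genotype and breeding origin cannot be told apart in these values.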

How the results depend on the processing

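Leaving out 1 array at a time gave 2 to 4 members called for PCN in WT (4 without WT PCN replicate 1), 0 to 1 for PCN in *Pxr*-/-, 1 to 2 for the interaction, and 0 to 1 between controls (1 without WT CONT replicate 1). Over all 37161 probes, 282 were called for PCN in WT without WT PCN replicate 1, against 257 with the authors' values. Between controls, 53 probes were called without WT CONT replicate 1, against 55. For PCN in *Pxr*-/- mice, where 1 was called, the count was 0 within wash batch 1, 0 within wash batch 2, 0 with only the groups of the contrast, 0 with arrayWeights, 2 with slide as a fixed block and 2 with no fold threshold. Over all probes, 352 were called with the authors' values, 10 within wash batch 1 and 159 within wash batch 2. The probe count was 261 with only the groups of the contrast, 272 with arrayWeights and 446 with slide as a fixed block. For the interaction, where 2 were called, the member count was 0 within wash batch 1, 0 within wash batch 2, 1 with slide as a fixed block and 1 with arrayWeights. Over all probes the interaction called 29 with the authors' values, 3 within wash batch 1 and 0 within wash batch 2. The probe count was 17 with slide as a fixed block and 29 with arrayWeights. For the interaction almost no probe was called within a batch, so its member count of 0 there says little about these genes. A fit of only the groups of a contrast gives no interaction. Between controls, where 0 were called, the member count was 1 with slide as a fixed block and 1 with arrayWeights. Over all probes these 2 settings called 257 and 234, against 55 with the authors' values. Counts between the genotypes under PCN did not move by over 1.5 times under any alternative. Fewer arrays entered the fits within a batch, and the cause of the other changes was not tested.

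Replicate numbers did not pair the samples (correlations of deviations -0.204 to 0.423 over 22 pairs, 4 above 0.1), and the replicate block changed no count (2 called for PCN in WT, 1 in *Pxr*-/-, 2 for the interaction, 0 between controls, 2 under PCN).

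Changes of sign were met only in values that were not called. For PCN in WT they were *Ces1g* with quantile normalization of scanner signals (-0.00208, filtered or not), within wash batch 2 (-0.325) and with arrayWeights (-0.076). In *Pxr*-/- mice they were *Ces2g* within wash batch 2 (0.00379), *Ces1g* within wash batch 1 (-0.384), and *Ces1e* within wash batch 2 (0.157), with slide as a random (0.00607) or fixed block (0.087) and with arrayWeights (0.097). For the interaction they were, within wash batch 2, *Ces2b* (-0.071), *Ces2c* (-0.129), *Ces1e* (-0.073) and *Ces1f* (-0.352); within wash batch 1, *Ces2e* (0.220) and *Ces1g* (0.854); with slide as a fixed block, *Ces2c* (-0.044) and *Ces1e* (-0.062); with arrayWeights, *Ces1e* (-0.032) and *Ces1f* (-0.107); and with the 75th percentile scaling, *Ces2e* (0.025). Between controls they were *Ces2g* (-0.067) and *Ces1d* (-0.024) within wash batch 2, and under PCN *Ces1d* with arrayWeights (0.00833) and *Ces1g* within wash batch 2 (0.00227).

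Leaving out 1 array also turned signs. For PCN in WT, *Ces1e* ranged from -0.076 to 0.315 and *Ces1g* from -0.301 to 0.143. In *Pxr*-/- mice, *Ces1e* ranged from -0.097 to 0.109 and *Ces1g* from -0.195 to 0.135. For the interaction, *Ces2c* ranged from -0.00677 to 0.184, *Ces2e* from -0.077 to 0.046, *Ces1e* from -0.071 to 0.320, *Ces1f* from -0.00417 to 0.225 and *Ces1g* from -0.334 to 0.212. Between genotypes, *Ces2g* ranged from -0.037 to 0.171 without PCN, and under PCN *Ces1d* from -0.242 to 0.00829 and *Ces1e* from -0.092 to 0.299.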
